A study of Mus musculus with 10 samples.

Results

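Chemokine genes that activated CD8 T cells can transcribe were followed across all 5 groups of a bulk RNA sequencing experiment on pmel-1 mouse T cells. The set was given as a list of 10 gene names, Ccl1, Ccl3, Ccl4, Ccl5, Ccl9, Ccl22, Xcl1, Cxcl9, Cxcl10 and Cxcl11, and all 10 were found among the 55359 gene identifiers of the count table. Of these, 9 passed the filter on low counts and were tested, while Ccl9 did not pass. T cells of pmel-1 mice carry a transgenic receptor that recognises gp100, an antigen of melanoma. Splenocytes were activated with the human gp100 antigen for 48 h, kept in human IL-2 for another 48 h, and RNA was taken 24 h after electroporation.

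The mixture group received mRNA for single-chain IL-12 together with mRNA for DRIL18, the decoy-resistant variant of IL-18. The IL12 group received only the single-chain IL-12 mRNA, and the DRIL18 group only the DRIL18 mRNA. Mock cells were electroporated and labelled Mock, and their labels name no mRNA. NoEp cells, labelled WT, were not electroporated. Every group had 2 libraries, all from spleen cultures of pmel-1 lymphocytes activated in the same way. The labels state neither strain, age nor sex of the mice. Replicates are marked as biological, without word on whether each stands for another mouse, so p-values cover only the spread between these libraries, which may be technical.

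Chemokines are small secreted proteins that guide cells through G protein-coupled receptors. They are named after the spacing of their first cysteines, CC when these are adjacent, CXC when a residue lies between them, and XC when one of the pair is missing. Ccl3, Ccl4 and Ccl5 are products of activated CD8 T cells that attract other T cells and myeloid cells, while XCL1 calls cross-presenting dendritic cells through XCR1. Cxcl9, Cxcl10 and Cxcl11 are classical interferon-γ target genes whose products attract activated T cells through CXCR3.

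Libraries held between 31281944 and 35062545 counts, so a gene with 0 counts may have been present at up to 0.0835 to 0.098 CPM (counts scaled to library size with TMM factors), the limit that 3 counts set in each library; this covers counting error only. Markers of CD8 T cells, among them Cd3e, Cd8a, Cd8b1 and Trac, were present in every group, and the sum of the 6 markers was 2686 to 2712 CPM in the mixture, 3099 to 3196 CPM with IL12, 3532 to 3569 CPM with DRIL18, 3820 to 3860 CPM in Mock and 3881 to 4052 CPM in NoEp. Markers of macrophages and monocytes (8 genes) summed to at most 1.78 CPM in any library, with C1qa at 0 counts in every library and C1qb at 0 counts in all but the NoEp libraries. Those of dendritic cells without Xcr1 (5 genes) summed to 1.75 to 2.54 CPM in the mixture, mostly Zbtb46 (mean 2.12 CPM). The sum was 0.359 to 1.04 CPM with IL12, 0.707 to 1.04 with DRIL18, 0.311 to 0.416 in Mock and 0.306 to 0.471 in NoEp. The 5 B cell markers were present in all groups, at 25.4 to 27.9 CPM in the mixture, 15.2 to 17.6 CPM with IL12, 20.4 to 21.0 CPM with DRIL18, 15.2 to 16.5 CPM in Mock and 18.7 to 20.7 CPM in NoEp. The 3 CD4 T cell markers summed to between 5.73 CPM with IL12 and 8.1 CPM in NoEp over all libraries. Between mixture and Mock, Cd4 had means of 5.25 and 5.03 CPM, Foxp3 0.104 and 1.03 CPM, and Cd40lg 1.84 and 0.709 CPM. The part of all such cells in the chemokine levels was not tested. In bulk RNA, fewer cells of a type and less RNA per cell cannot be told apart.

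Upstream sequences of the Cxcl10, Cxcl9 and Ccl1 genes are shown because Cxcl10 and Ccl1 both rose with DRIL18 mRNA yet moved apart in the mixture, and Cxcl9 lies near Cxcl10 and shares its receptor. Each runs from 250 bases before to 50 bases after the annotated start, 5′ to 3′ on the gene's strand, and comes from RefSeq on GRCm38.p6, which is an older build than the one used for counting. Cxcl10 lies at chr5:92348840-92349139 and Cxcl9 at chr5:92328030-92328329, both on the minus strand, and Ccl1 at chr11:82179763-82180062, also on the minus strand. Capitals mark every match, on either strand, to 4 motifs: the interferon-stimulated response element (GAAA, any 2 bases, GAAA), the gamma-activated site TTCNNNGAA, a κB site (GGGA, any 4 bases, CC) and an AP-1 site TGANTCA.
Cxcl10: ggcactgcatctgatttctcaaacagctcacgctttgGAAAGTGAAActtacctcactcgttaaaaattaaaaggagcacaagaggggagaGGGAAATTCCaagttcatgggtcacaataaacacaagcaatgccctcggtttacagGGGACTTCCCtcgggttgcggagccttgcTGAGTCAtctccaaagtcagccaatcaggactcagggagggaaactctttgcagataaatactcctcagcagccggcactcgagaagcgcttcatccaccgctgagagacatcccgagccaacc
Cxcl9: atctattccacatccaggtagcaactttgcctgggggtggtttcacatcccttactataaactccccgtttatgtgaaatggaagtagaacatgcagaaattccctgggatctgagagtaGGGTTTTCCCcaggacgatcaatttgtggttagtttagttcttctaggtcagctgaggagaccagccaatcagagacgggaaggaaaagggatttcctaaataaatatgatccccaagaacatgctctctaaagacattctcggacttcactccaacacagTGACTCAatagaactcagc
Ccl1: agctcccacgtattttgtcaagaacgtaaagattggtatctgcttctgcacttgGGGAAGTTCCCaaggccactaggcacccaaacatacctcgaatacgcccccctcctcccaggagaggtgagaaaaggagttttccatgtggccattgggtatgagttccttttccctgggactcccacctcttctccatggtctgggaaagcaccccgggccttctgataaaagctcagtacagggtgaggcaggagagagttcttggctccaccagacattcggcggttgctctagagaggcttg

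The Cxcl10 window holds 1 response element, GAAAGTGAAA, starting 213 bases before the start. It also holds 2 κB matches, GGGAAATTCC at 159 and GGGACTTCCC at 103, and 1 AP-1 match, TGAGTCA, at 74 bases before the start. The Cxcl9 window holds 1 κB match, GGGTTTTCCC, which reads on the other strand, and 1 AP-1 match behind the start. In the Ccl1 window, 2 κB matches on opposite strands overlap each other and form the run in capitals. Of the 7 members with an entry, the response element was matched only in Cxcl10 and the gamma-activated site in none. Among all 32851 promoter windows of the same length, 3.44% hold the response element, 8.3% the gamma-activated site, 20.7% the κB site and 7.81% the AP-1 site. A match in letters is not evidence of binding.

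Per kilobase of exon, Ccl5 was the most abundant of the 10 genes in Mock cells, with 19.3 ± 0.432 CPM per kb (mean ± SD, n = 2). Xcl1 followed with 3.18 ± 0.476, Ccl4 with 1.19 ± 0.104 and Ccl3 with 0.904 ± 0.289 CPM per kb in Mock, and the other 6 genes were at or below 0.244 CPM per kb. In the mixture the order was another one, with Cxcl10 at 15.3 ± 0.969, Ccl3 at 4.94 ± 1.28, Ccl5 at 4.37 ± 0.277, Ccl4 at 2.97 ± 0.127 and Xcl1 at 2.25 ± 0.263 CPM per kb. Ccl3 and Ccl5 did not differ beyond their spread there. Exon lengths came from a GRCm38 annotation and may differ from those used in counting.

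**Figure D1:**
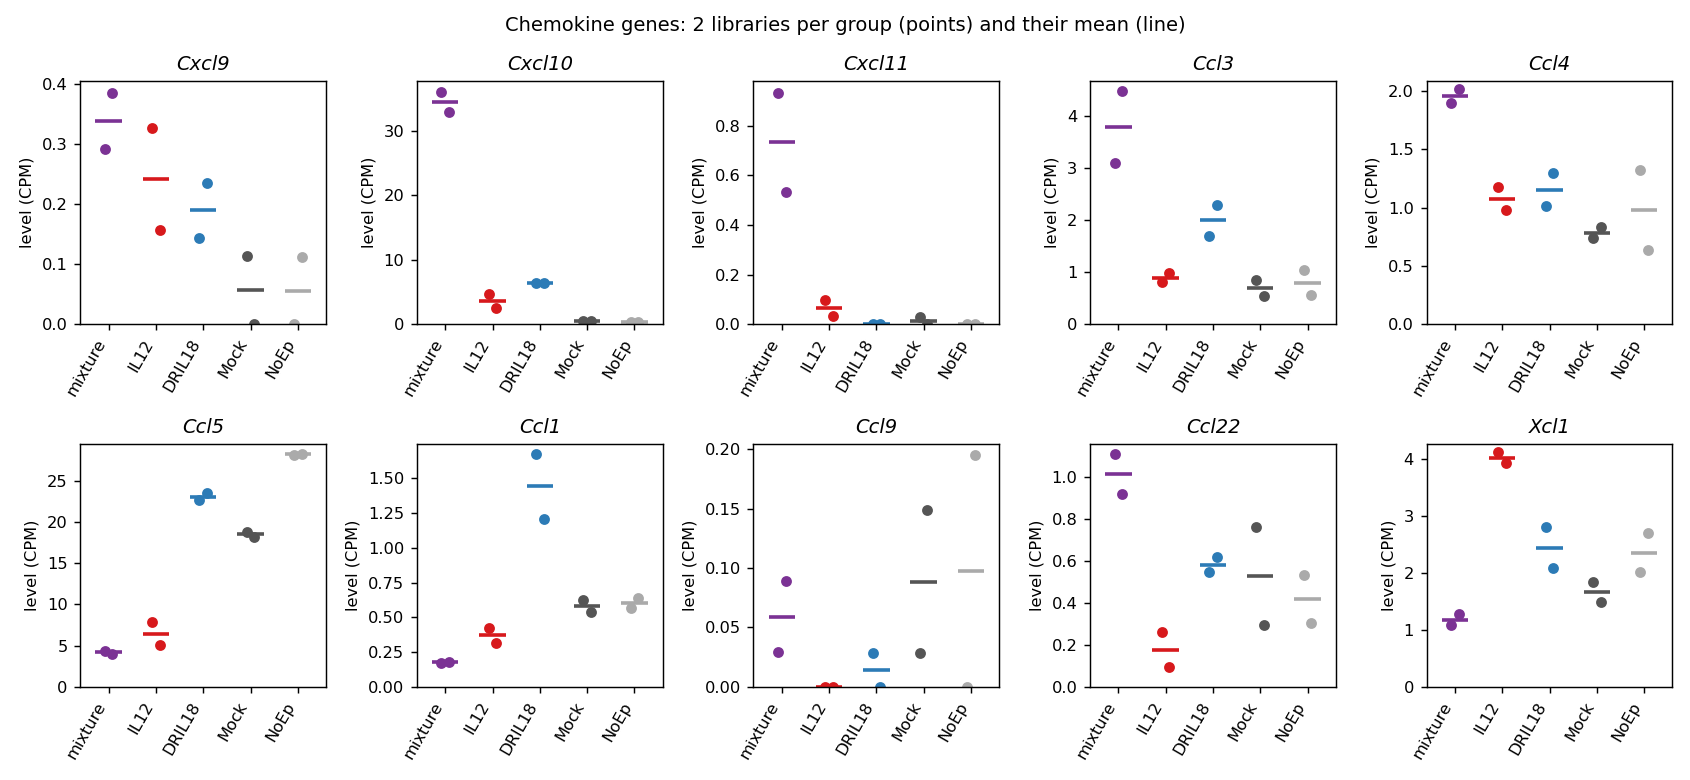
Levels of the 10 chemokine genes in CPM (linear axes from 0, a scale of its own for each gene) by group, with a point for each of the 2 libraries and a line for their mean. Cxcl10 stands at 32.9 and 35.9 CPM in the mixture and at most at 6.45 CPM elsewhere, whereas Ccl5 is lowest in the mixture and Xcl1 highest with IL12.

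To see how the delivered cytokine mRNAs acted on these genes, each treated group was compared with Mock in a single fit of all 10 libraries with edgeR's quasi-likelihood test, with p-values adjusted by Benjamini-Hochberg over all 15777 tested genes. A gene was called at an adjusted p under 0.05. In the mixture 7 of the 9 tested members were called, 5 higher and 2 lower, where 63.9% of all tested genes were called, 32.0% higher and 31.9% lower. Both mixture libraries and no Mock library carry the mark bis in their column names, which no label explains. With bis as a covariate 5 members were called in the mixture, 4 higher and 1 lower. With IL12 4 members were called, 2 in each direction, against 46.6% of all genes, 23.0% higher and 23.6% lower, and with DRIL18 4, all higher, against 24.3% of all genes and 12.2% in that direction. The DRIL18 count was 2 without DRIL18 replicate 1, without Mock replicate 2 or with DESeq2. The median log2 fold change of the tested members was 1.32 in the mixture, 0.45 with IL12 and 0.55 with DRIL18, while that of all tested genes was -0.00209, -0.00651 and 0.00434. Cxcl11 entered the test only through the mixture libraries and Cxcl9 only through mixture replicate 2 and IL12 replicate 1, so a difference was built into their selection and these counts do not stand for all 10 genes. The 3 comparisons share the Mock libraries.

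Among the CXCR3 ligands, Cxcl10 (ENSMUSG00000034855) rose in every treated group, and most in the mixture. It was at 35.9 and 32.9 CPM in the mixture, 4.64 and 2.58 CPM with IL12, 6.32 and 6.45 CPM with DRIL18, 0.453 and 0.565 CPM in Mock and 0.408 and 0.39 CPM in NoEp. No library of a treated group overlapped with Mock, as held for 80.9% of all tested genes in the mixture, 71.3% with IL12 and 60.3% with DRIL18. The rise against Mock was 67.3-fold in the mixture (log2 fold change 6.07 ± 0.19 SE, adjusted p = 1.72e-22), 7.04-fold with IL12 (2.81 ± 0.27, adjusted p = 2.97e-10) and 12.5-fold with DRIL18 (3.64 ± 0.24, adjusted p = 3.95e-13). IL12 stood below DRIL18 (-0.83 ± 0.17, adjusted p = 0.000138), by a difference that was -1.30 without IL12 replicate 1 and -0.46 without IL12 replicate 2 and passed in both. The Art3 gene overlaps Cxcl10 and Cxcl11 on the other strand in the GRCm38 annotation, but had between 0 and 7 counts per library.

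Cxcl11 (ENSMUSG00000060183), whose copy in C57BL/6 mice is known to carry a frameshift, was read almost only in the mixture. It had 32 and 18 counts in the mixture, 3 and 1 with IL12, 0 and 0 with DRIL18, 1 and 0 in Mock and 0 and 0 in NoEp. The ratio of the mixture to Mock was 50.7, with a 95% counting interval of 8.69 to 2043 that leaves out the spread between libraries. Its adjusted p was 1.98e-05. Because Cxcl11 entered the test only through the mixture libraries, a difference was built into its comparisons with the mixture, and their p-values are no support. Against DRIL18 the mixture was 16.8-fold higher with 3 counts over the group set in place of the 0. The lower 95% counting limit on the 0 itself was 13.2, which also leaves out the spread between libraries. Against the 4 counts with IL12 the ratio was 11.5 (95% counting interval 4.21 to 43.7, adjusted p = 0.000409).

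Cxcl9 (ENSMUSG00000029417) stayed close to the limit of these libraries. It had 10 and 13 counts in the mixture, 10 and 5 with IL12, 5 and 8 with DRIL18, 4 and 0 in Mock and 0 and 4 in NoEp. All treated libraries lay above all Mock libraries. Cxcl9 entered the test only through mixture replicate 2 and IL12 replicate 1, so a difference from Mock was built into its selection. The mixture passed against Mock (2.47 ± 0.91, adjusted p = 0.0182), but did not pass without mixture replicate 2 (2.26, adjusted p = 0.102), without Mock replicate 2 (1.55, adjusted p = 0.205), with DESeq2 (2.57, adjusted p = 0.0816) or with the mark bis of the column names as a covariate (2.68, adjusted p = 0.0694). Without Mock replicate 1 Mock has 0 counts, and IL12 then passes as well (adjusted p = 0.0334). Otherwise IL12 (1.99, adjusted p = 0.0938) and DRIL18 (1.65, adjusted p = 0.257) did not pass.

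Of the CC chemokines of chromosome 11, Ccl3 (ENSMUSG00000000982), which encodes MIP-1α, rose with DRIL18 and in the mixture. It was at 3.09 and 4.48 CPM in the mixture, 0.817 and 0.975 CPM with IL12, 1.7 and 2.3 CPM with DRIL18, 0.849 and 0.535 CPM in Mock and 1.04 and 0.557 CPM in NoEp. Mixture and DRIL18 libraries lay above all others, and IL12 overlapped with Mock. Ccl3 rose 5.42-fold in the mixture (2.44 ± 0.30, adjusted p = 2.61e-08) and 2.87-fold with DRIL18 (1.52 ± 0.32, adjusted p = 0.000628), and IL12 was at 0.37 ± 0.37 (adjusted p = 0.448). Adding DRIL18 mRNA to IL12 mRNA raised it by 2.07 ± 0.30 on the log2 scale (adjusted p = 5.35e-07). The mixture also passed against DRIL18 (0.92 ± 0.26, adjusted p = 0.0032), but did not pass without mixture replicate 2 (0.63, adjusted p = 0.113) or DRIL18 replicate 1 (0.72, adjusted p = 0.0678). IL12 stood below DRIL18 (-1.15, adjusted p = 0.0039), a call lost without DRIL18 replicate 2 (-0.92, adjusted p = 0.0703).

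Ccl4 (ENSMUSG00000018930), which encodes MIP-1β and lies next to Ccl3 on chromosome 11, rose in the mixture. Its levels were 1.90 and 2.02 CPM in the mixture, 1.18 and 0.975 CPM with IL12, 1.01 and 1.30 CPM with DRIL18, 0.736 and 0.833 CPM in Mock and 1.32 and 0.64 CPM in NoEp. The mixture libraries lay above all others, and the NoEp libraries spanned the other groups. The change against Mock was 2.49-fold in the mixture (1.32 ± 0.33, adjusted p = 0.000774), with 0.45 ± 0.35 for IL12 (adjusted p = 0.315) and 0.55 ± 0.35 for DRIL18 (adjusted p = 0.278). The mixture passed against IL12 (0.86 ± 0.32, adjusted p = 0.0224) and against DRIL18 (0.76 ± 0.31, adjusted p = 0.0358). The call against IL12 was lost without mixture replicate 1 (0.91, adjusted p = 0.0544), mixture replicate 2 (0.82, adjusted p = 0.0886) or IL12 replicate 2 (0.73, adjusted p = 0.119), and that against DRIL18 without mixture replicate 1 (0.81, adjusted p = 0.0761), mixture replicate 2 (0.72, adjusted p = 0.122) or DRIL18 replicate 1 (0.59, adjusted p = 0.205). With DESeq2 (adjusted p = 0.0931 against IL12 and 0.127 against DRIL18) and with the mark bis as a covariate (adjusted p = 0.0605 and 0.0809) neither passed, and against DRIL18 Ccl4 also missed the threshold with library totals alone (adjusted p = 0.0539) and limma (adjusted p = 0.0508).

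Ccl5 (ENSMUSG00000035042), which encodes RANTES, a late product of effector and memory CD8 T cells, fell with IL12 and further in the mixture. It was at 4.38 and 4.0 CPM in the mixture, 7.87 and 5.06 CPM with IL12, 22.6 and 23.5 CPM with DRIL18, 18.8 and 18.2 CPM in Mock and 28.1 and 28.3 CPM in NoEp. No groups overlapped in this gene; between Mock and NoEp, 49.1% of all tested genes did not overlap. The level was 4.41-fold lower in the mixture (-2.14 ± 0.12, adjusted p = 7.43e-16) and 2.87-fold lower with IL12 (-1.52 ± 0.12, adjusted p = 2.35e-12) than in Mock. The mixture also fell below IL12 (-0.62 ± 0.15, adjusted p = 0.00061), but did not pass without IL12 replicate 1 (-0.28, adjusted p = 0.144). Against DRIL18 it fell by 2.46 on the log2 scale (adjusted p = 2.19e-17).

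DRIL18 alone passed slightly higher for Ccl5 (0.32 ± 0.10, adjusted p = 0.0155). That call was lost without DRIL18 replicate 1 (0.34, adjusted p = 0.0538), DRIL18 replicate 2 (0.29, adjusted p = 0.115), either Mock library (0.34, adjusted p = 0.0727 without replicate 1; 0.30, adjusted p = 0.12 without replicate 2), and with DESeq2 (0.31, adjusted p = 0.0694) or limma on the deposited log2 values (0.32, adjusted p = 0.0892), at a fold change about as large. Ccl5 was the only one of the 9 tested members called between Mock and NoEp (-0.61 ± 0.10, adjusted p = 0.00017), where 6.98% of all genes were called, 3.34% higher and 3.64% lower. Xcl1 was nominally lower in Mock (-0.50 ± 0.24, adjusted p = 0.238).

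Ccl9 (ENSMUSG00000019122), which lies between Ccl5 and Ccl6 on chromosome 11 and is known mainly from myeloid cells, was barely read. It had 1 and 3 counts in the mixture, 0 and 0 with IL12, 1 and 0 with DRIL18, 1 and 5 in Mock and 0 and 7 in NoEp. Both IL12 libraries lay below the mixture and Mock libraries, while the other groups overlapped, and with at most 7 counts in a library no test was made.

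**Figure D2:**
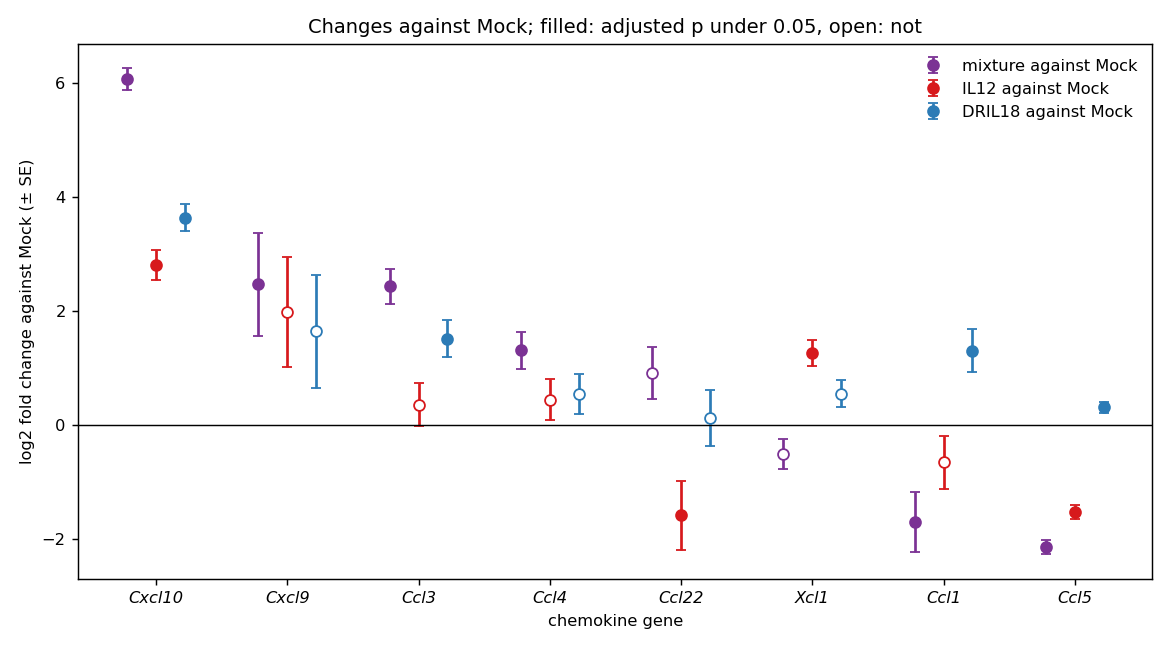
Log2 fold change against Mock (vertical axis, ± SE, n = 2 libraries per group) of 8 chemokine genes in the mixture, IL12 and DRIL18, with filled points for an adjusted p under 0.05. Cxcl11 and the untested Ccl9 are not shown. Cxcl10 is raised in every treated group, Ccl5 falls in the mixture and with IL12, and Ccl1 rises with DRIL18 but falls in the mixture.

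Xcl1 (ENSMUSG00000026573), the ligand of XCR1, rose with IL12 but not in the mixture. The Gm20743 gene overlaps it on the other strand in the GRCm38 annotation and had between 1 and 11 counts per library. Levels of Xcl1 were 1.08 and 1.28 CPM in the mixture, 4.12 and 3.93 CPM with IL12, 2.8 and 2.09 CPM with DRIL18, 1.84 and 1.49 CPM in Mock and 2.01 and 2.7 CPM in NoEp. The IL12 libraries lay above all others, and the mixture libraries below all others. The change against Mock was 2.41-fold with IL12 (1.27 ± 0.23, adjusted p = 2.67e-05), -0.50 ± 0.27 in the mixture (adjusted p = 0.101) and 0.55 ± 0.24 with DRIL18 (adjusted p = 0.094). Against IL12, the mixture fell by 1.77 (± 0.24, adjusted p = 2.21e-07), and against DRIL18 by 1.05 (± 0.25, adjusted p = 0.000627). IL12 stood above DRIL18 (0.72, adjusted p = 0.00866), a call lost without DRIL18 replicate 2 (0.53, adjusted p = 0.118).

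Ccl1 (ENSMUSG00000020702), a ligand of CCR8, rose with DRIL18 and fell in the mixture. It was at 0.175 and 0.178 CPM in the mixture, 0.425 and 0.315 CPM with IL12, 1.67 and 1.21 CPM with DRIL18, 0.623 and 0.535 CPM in Mock and 0.565 and 0.64 CPM in NoEp. Libraries of the mixture were lowest and those of DRIL18 highest, with no overlap, while Mock and NoEp overlapped. DRIL18 raised it 2.48-fold (1.31 ± 0.38, adjusted p = 0.0106), but it did not pass without DRIL18 replicate 1 (1.05, adjusted p = 0.148) or Mock replicate 2 (1.21, adjusted p = 0.0903). DESeq2 left Ccl1 without an adjusted p in this comparison, so it could not be called there. In the mixture it was 3.24-fold lower than in Mock (-1.69 ± 0.52, adjusted p = 0.00523), on 12 counts against 40, and that call was lost with the mark bis as a covariate (-1.24, adjusted p = 0.115). Against DRIL18 the mixture was 8.02-fold lower (-3.00 ± 0.46, adjusted p = 1.61e-06).

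Ccl22 (ENSMUSG00000031779), a ligand of CCR4 known mainly from dendritic cells, macrophages and B cells, was lowest with IL12. It had 38 and 31 counts in the mixture, 8 and 3 with IL12, 19 and 21 with DRIL18, 27 and 10 in Mock and 17 and 11 in NoEp. The mixture lay above all other libraries, and DRIL18 lay within the range of Mock. The mixture rose 5.65-fold over IL12 (2.50 ± 0.56, adjusted p = 0.000363), and by 3.37 on the log2 scale without IL12 replicate 1. Against Mock the mixture was at 0.92 ± 0.46 (adjusted p = 0.0819), passing without Mock replicate 1 (1.76, adjusted p = 0.0181). IL12 passed lower than Mock (-1.58 ± 0.61, adjusted p = 0.0336), reaching -2.45 without IL12 replicate 1, but not without IL12 replicate 2 (-1.02, adjusted p = 0.25), without Mock replicate 1 (-0.74, adjusted p = 0.496), with DESeq2 (-1.58, adjusted p = 0.077) or with the mark bis as a covariate (-1.45, adjusted p = 0.0805). The summed B cell markers (25.4 to 27.9 CPM) and the summed dendritic cell markers without Xcr1 (1.75 to 2.54 CPM) were also highest in the mixture. Most of the dendritic cell sum was Zbtb46, at a mean of 2.12 CPM in the mixture. Clec9a and Siglech had 0 counts there, and Cd209a and Flt3 had 1 count each, for Flt3 the fewest of all groups. The part of such cells in the Ccl22 levels was not tested.

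To see what each mRNA added to the other, the mixture was compared with each single mRNA. Against IL12, 7 of the 9 tested members were called, 5 higher and 2 lower, beside 52.2% of all genes, 25.8% higher and 26.3% lower. Against DRIL18, 7 were called, 4 higher and 3 lower, beside 57.3% of all genes, 28.3% higher and 29.0% lower. Cxcl11 was among those called higher in both comparisons. It entered the test only through the mixture libraries, so a difference was built into both counts. Cxcl10 rose 9.56-fold over IL12 (3.26 ± 0.14, adjusted p = 1.03e-18) and 5.38-fold over DRIL18 (2.43 ± 0.13, adjusted p = 1.01e-16). Groups did not overlap in 72.9% of all genes for the mixture against IL12, 77.2% against DRIL18 and 66.5% for IL12 against DRIL18. Between the single mRNAs, where 39.5% of all genes were called, 18.9% higher and 20.6% lower, 6 members were called, 1 higher with IL12 and 5 lower. Without DRIL18 replicate 2 that count was 3.

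Whether the mixture departed from the product of the single effects was tested as an interaction, in which both single log2 fold changes are subtracted from that of the mixture. It was called for 4 of the 9 tested members, where 31.6% of all genes were called, 14.6% higher and 17.1% lower. Xcl1 (-2.32 ± 0.34, adjusted p = 2.17e-06), Ccl1 (-2.36 ± 0.68, adjusted p = 0.0078) and Ccl5 (-0.94 ± 0.18, adjusted p = 9.07e-05) were below the sum, and Ccl22 (2.37 ± 0.76, adjusted p = 0.0162) above it. The Ccl22 call was lost without mixture replicate 1 (2.23, adjusted p = 0.0513), IL12 replicate 2 (1.82, adjusted p = 0.0916) or Mock replicate 1 (1.53, adjusted p = 0.228), and the value was 3.25 without IL12 replicate 1.

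Cxcl10 was not called for the interaction (-0.39 ± 0.33, adjusted p = 0.415), its mixture log2 fold change of 6.07 standing beside a sum of 6.46. On the scale of levels the mixture mean of 34.4 CPM compares with 9.996 CPM for the IL12 and DRIL18 means added together. Without IL12 replicate 2 the interaction of Cxcl10 passed (-0.75, adjusted p = 0.0425), and without IL12 replicate 1 it was 0.09 (adjusted p = 0.888), so that leaving out IL12 replicate 1 turns its sign. Ccl3 (0.55 ± 0.46, adjusted p = 0.399), Ccl4 (0.31 ± 0.47, adjusted p = 0.685) and Cxcl9 (-1.17 ± 1.23, adjusted p = 0.527) were not called either. Their standard errors leave room for a departure of that size. Cxcl11, which entered the test only through the mixture libraries, was not called (5.73 ± 3.02, adjusted p = 0.158).

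**Figure D3:**
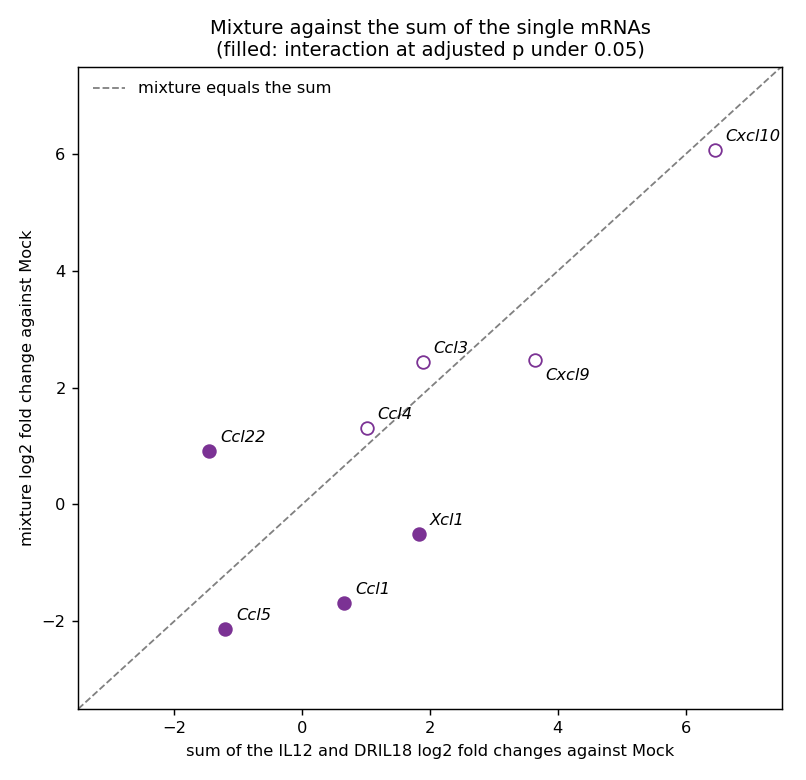
Mixture against Mock as log2 fold change (vertical axis) plotted over the sum of the IL12 and DRIL18 log2 fold changes (horizontal axis) for 8 chemokine genes, with filled points where the interaction has an adjusted p under 0.05. Cxcl11 and the untested Ccl9 are not shown. Cxcl10 lies near the dashed line of equality at 6.07 against 6.46, while Xcl1, Ccl1 and Ccl5 lie below it and Ccl22 above it.

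Reads of the 10 genes together amounted to 48.9 and 46.7 CPM in the mixture, 19.7 and 14.1 CPM with IL12, 36.8 and 37.7 CPM with DRIL18, 24.2 and 22.6 CPM in Mock and 34.0 and 33.8 CPM in NoEp. Cxcl10 made up 73.4% and 70.3% of these reads in the mixture, 23.5% and 18.3% with IL12, 17.1% and 17.1% with DRIL18, 1.87% and 2.5% in Mock and 1.2% and 1.15% in NoEp. Ccl5 made up 8.95% and 8.57% in the mixture, 39.9% and 35.9% with IL12, 61.4% and 62.3% with DRIL18, 77.6% and 80.5% in Mock and 82.7% and 83.6% in NoEp. These shares are of reads and not of molecules, since the genes differ in length.

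**Figure D4:**
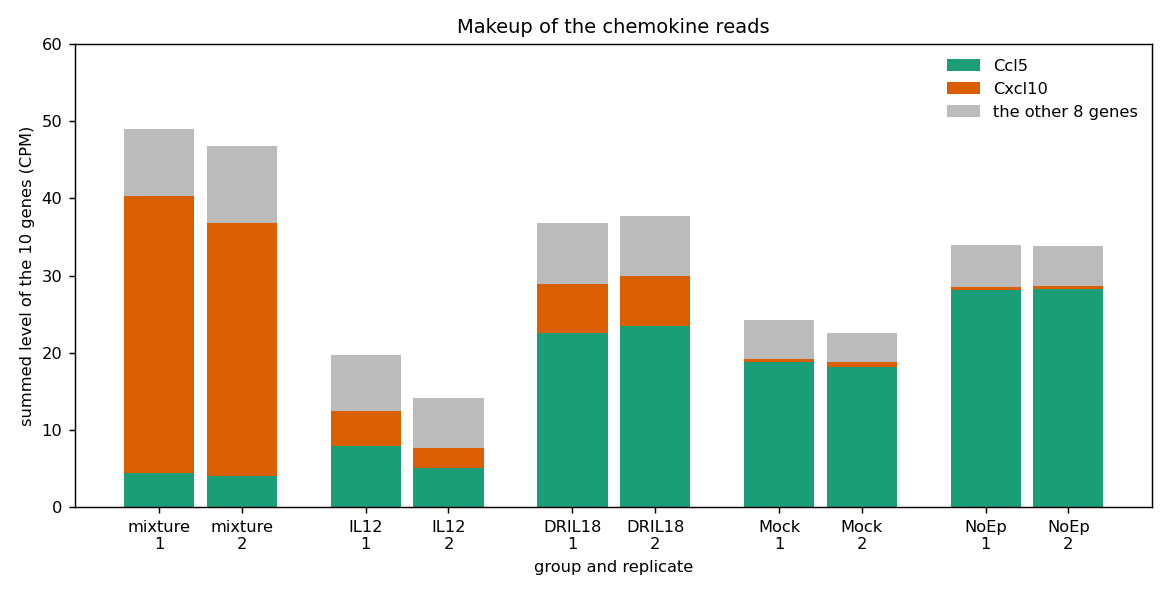
Summed level of the 10 chemokine genes in CPM (stacked bars from 0) in each of the 10 libraries, split into Ccl5, Cxcl10 and the other 8 genes. Ccl5 makes up 77.6% and 80.5% of the reads in Mock, and Cxcl10 73.4% and 70.3% in the mixture.

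Of 28 further mouse chemokine genes, 5 were tested and 11 had 0 counts in every library. The 23 that were not tested reached at most 0.261 CPM in any library. In the mixture, Cxcl16, a transmembrane chemokine, was higher (1.00 ± 0.41, adjusted p = 0.0322) and Ccl25 lower (-0.42 ± 0.13, adjusted p = 0.00692), and 0 of the 5 were called with IL12 or with DRIL18. The call of Cxcl16 was lost without mixture replicate 1 (1.11, adjusted p = 0.0577), mixture replicate 2 (0.89, adjusted p = 0.138) or Mock replicate 2 (0.52, adjusted p = 0.345), and that of Ccl25 without mixture replicate 2 (-0.38, adjusted p = 0.051). Without Mock replicate 1 Cxcl16 was at 1.78. With the mark bis as a covariate both calls were lost (adjusted p = 0.124 for Cxcl16 and 0.0706 for Ccl25), and with DESeq2 that of Cxcl16 (adjusted p = 0.117).

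The genes of the receptors were read in every group. All 8 receptor genes examined were tested, of which 5 were called higher and 1 lower in the mixture, 2 higher and 1 lower with IL12, and 4 lower with DRIL18, where 63.9%, 46.6% and 24.3% of all genes were called in these 3 comparisons. The mixture count was 3, of which 2 were higher, once bis entered as a covariate. The mixture calls of Ccr1 (0.83, adjusted p = 0.0201) and Ccr4 (0.20, adjusted p = 0.0129) were also lost with DESeq2 (adjusted p = 0.0779 for Ccr1 and 0.0526 for Ccr4) and without mixture replicate 1 (adjusted p = 0.092 for Ccr1 and 0.195 for Ccr4). Ccr1 was further lost without Mock replicate 1 (0.54, adjusted p = 0.208), and Ccr4 without Mock replicate 2 (0.17, adjusted p = 0.0959) and with library totals alone (0.14, adjusted p = 0.0726). Cxcr3 was at 83.5 and 77.8 CPM in the mixture, 194 and 185 CPM with IL12, 219 and 230 CPM with DRIL18 and 259 and 261 CPM in Mock, and fell against Mock by 1.69 in the mixture (adjusted p = 5.75e-25), 0.46 with IL12 (adjusted p = 5.56e-11) and 0.21 with DRIL18 (adjusted p = 0.000132) on the log2 scale.

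Xcr1, known as a receptor of cross-presenting dendritic cells, was at 7.82 and 8.15 CPM in the mixture, 20.6 and 20.6 CPM with IL12, 2.94 and 2.39 CPM with DRIL18 and 4.64 and 4.34 CPM in Mock. It rose in the mixture (0.83, adjusted p = 1.02e-06), rose with IL12 (2.20, adjusted p = 2.68e-16) and fell with DRIL18 (-0.75, adjusted p = 0.000284). Of the 5 other dendritic cell markers, Clec9a and Siglech had 0 counts in these libraries, Cd209a at most 1 count and Flt3 at most 5. Zbtb46 had 87 and 57 counts in the mixture, 11 and 28 with IL12, 31 and 19 with DRIL18 and 8 and 13 in Mock, and rose in the mixture (2.78 ± 0.43, adjusted p = 1.44e-06). The part of such cells in the Xcr1 levels was not tested. Ccr3, a receptor of Ccl5 known from eosinophils, had 38 and 28 counts in the mixture, 1 and 5 with IL12, 2 and 4 with DRIL18, 0 and 4 in Mock and 1 and 4 in NoEp. It entered the test only through the mixture libraries, so that a difference was built into its selection, and its call in the mixture was lost with the mark bis as a covariate (adjusted p = 0.193).

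Ifng, which encodes a known inducer of the CXCR3 ligands, was at 8882 and 9109 CPM in the mixture, 209.8 and 189 CPM with IL12, 17.5 and 17.2 CPM with DRIL18 and 0.906 and 1.43 CPM in Mock. Cxcl10 was higher with DRIL18 than with IL12, while Ifng was lower there (the Cxcl10 difference between IL12 and DRIL18 ran from -1.30 to -0.46 with either IL12 library left out). The part of Ifng in the Cxcl10 levels was not tested. Irf1, an interferon-induced transcription factor, was at 162 and 149 CPM in the mixture, 186 and 184 CPM with IL12, 276 and 272 CPM with DRIL18 and 177 and 179 CPM in Mock. It rose with DRIL18 (0.62 ± 0.04, adjusted p = 1.27e-13) and fell in the mixture (-0.20 ± 0.04, adjusted p = 8.25e-05).

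Of 8 genes of interferon-γ signalling, 2 were called higher and 5 lower in the mixture, beside 32.0% higher and 31.9% lower among all genes, with Ifng (12.92), Irf8 (1.97) and Ifngr2 (-1.77) moving most. Of 13 genes of IL-18 receptor and NF-κB signalling, 10 were called higher and 2 lower in the mixture, 7 higher and 3 lower with IL12, and 5 higher and 3 lower with DRIL18, beside 63.9%, 46.6% and 24.3% of all genes called in the same comparisons. Nfkbiz (2.93), Il18r1 (2.92) and Nfkbia (2.36), an NF-κB target that encodes its inhibitor, moved most in the mixture. These lists were chosen with earlier results of these data known.

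Genes most like the members over the 10 libraries were ranked by Pearson's r of log2 CPM among up to 10186 tested genes with a symbol that reached a mean of 5 CPM in a group. The nearest to Cxcl10 were Vdac2 (r = 0.995) and Sms (0.992), to Ccl5 Golph3l (0.991) and Smpdl3a (0.989), to Cxcl11 Med7 (0.99) and Pdxdc1 (0.989), and to Ccl1 3830406C13Rik (0.984) and Gbp10 (0.983). Ccl3 was nearest to Lad1 (0.967) and Zc3h14 (0.966), Xcl1 to Enpp5 (0.943) and Gimap4 (0.941), Ccl22 to Cebpg (0.942) and Tbpl1 (0.939), Ccl4 to Ndufaf8 (0.941) and 4833439L19Rik (0.935), and Cxcl9 to Smco4 (0.924) and Tpm3-rs7 (0.913). The points share the same 10 libraries in 5 groups, so high values arise from few distinct levels.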

How the data were processed

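The table of raw counts holds whole numbers of reads per gene that the authors deposited without scaling. A second deposited table holds log2 CPM values for 13225 genes, scaled to library size by the authors, and was used only as an alternative. Per the submitters' processing notes, STAR 2.7.9, featureCounts, edgeR, limma and the build mm39 were used. The labels and notes state neither annotation release nor strand setting, so reads of a gene and an antisense partner may not be told apart. Columns were matched to samples by group name and replicate number. Symbols came from GENCODE M21 (GRCm38), which names 52083 of the 55359 identifiers.

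Counts were fitted with edgeR 4.0.16 in R 4.3.3 (TMM, filterByExpr, 5 group means, all 10 libraries), which left 15777 genes and 5 residual degrees of freedom. SE values were derived from the log2 fold change and its F statistic. The procedure was tested on simulated counts. Alternatives used DESeq2 1.42.0, limma 3.58.1, other scalings, no filter, a replicate block, the mark bis as a covariate, only the compared groups, and each library left out. Bis stands on the columns of both mixture and both NoEp libraries and of DRIL18 and IL12 replicate 2, and no label explains it. Replicates differed by more than counting noise in every group (chi-square per degree of freedom 2.59 to 4.83). Members and gene lists were chosen with earlier results of these data known. All members were named. Of the other lists, up to 3 called genes with the largest change in the mixture, and any receptor, upstream gene or marker, were named. The nearest genes were the 2 with the highest r. Some genes of the receptor and interferon-γ lists are counted but not reported here.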

Additional observations from a re-analysis of the deposited data

Results flagged for a closer look

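For 4 chemokine genes the effect of DRIL18 mRNA differed between cells with and without IL12 mRNA, by edgeR's quasi-likelihood test of the interaction over all 15777 tested genes. The interaction was -2.36 for Ccl1 (adjusted p = 0.0078), -0.94 for Ccl5 (adjusted p = 9.07e-05) and -2.32 for Xcl1 (adjusted p = 2.17e-06), each lower in the mixture than the single effects add up to. It was 2.37 for Ccl22 (adjusted p = 0.0162), which is higher than they add up to, on 69 counts in the mixture against 11 with IL12. With each library left out in turn the Ccl22 value ran from 1.53 to 3.25, and its call did not hold in all of these fits. The other members tested did not pass, among them Cxcl10 (-0.39, adjusted p = 0.415).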

How the results depend on the processing

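Of 1225 values of members under 18 alternatives, 1166 kept their direction and their side of the threshold, 41 lost a call, 4 gained one and 14 changed sign, none of them called. With each library left out in turn, the number of called members ranged from 6 to 8 for the mixture against Mock, 3 to 4 for IL12, 2 to 4 for DRIL18, 6 to 7 for the mixture against IL12, 5 to 7 against DRIL18, 3 to 6 for IL12 against DRIL18, 3 to 4 for the interaction and 1 to 1 for Mock against NoEp. The lowest DRIL18 count came without DRIL18 replicate 1 or Mock replicate 2. DESeq2 called 2 members for DRIL18 against Mock, where edgeR called 4. For the mixture against Mock, 5 members were called with bis as a covariate. Limma on the deposited log2 values called 5 of the 7 members it tested there. Values that an alternative left without an adjusted p are not among the 1225, so calls lost in that way are not counted.

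Values that changed sign with a library left out ranged as follows. Between IL12 and DRIL18, Cxcl9 ran from -0.26 to 0.78 and Ccl4 from -0.27 to 0.093, also reaching 0.032. The interaction of Cxcl10 ran from -0.75 to 0.090, and Ccl22 with DRIL18 from -0.38 to 0.96. Between Mock and NoEp, Ccl1 ran from -0.17 to 0.046, Ccl3 from -0.57 to 0.32, Ccl4 from -0.75 to 0.30, Ccl22 from -0.47 to 0.88 and Cxcl9 from -4.05 to 4.04, the ends of the last against 0 counts. With bis as a covariate Ccl3 was at 0.19 there. The cause was not tested.

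Over all genes, Mock against NoEp called 1102, but 172 with bis as a covariate, 242 without Mock replicate 1, 349 without Mock replicate 2 and 350 without NoEp replicate 2. DRIL18 against Mock called 3832, but 2525 without Mock replicate 2. Deviations of same-numbered libraries did not go together (r between -0.032 and 0.049 over 10 pairs of groups). With 2 libraries per group this cannot show whether they share a mouse or a culture, which no label states. With the replicate block 7, 4, 4, 7, 7, 6, 1 and 4 members were called in the 8 comparisons, the same counts as without it. Depth limits Ccl9 and Cxcl9, which have few counts in every group, and Cxcl11, which has few outside the mixture.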
